A study of Chionodraco hamatus and Gymnodraco acuticeps and Trematomus bernacchii with 9 samples.

Results

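Galectins were followed as the rows of a head kidney count table whose UniProt mnemonic, the text before the organism code, is LEG or LEG with a number. The rule found 8 of 12653 rows, and 5 of the 8 held enough counts to be tested between species. LEG_ELEEL was chosen by its counts, as a row among the most abundant, so its level and its differences are described without a test. The other 7 rows were tested where their counts allowed, 4 of them in the fit over all rows.

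The libraries were made from total RNA of the head kidney of the Antarctic fishes C. hamatus (Chionodraco hamatus), G. acuticeps (Gymnodraco acuticeps) and T. bernacchii (Trematomus bernacchii), with 3 libraries each. The labels give no treatment, sex or age, and do not tell whether the libraries of a species are from different animals; p-values cover only the spread between these libraries. C. hamatus is an icefish, a family whose adults lack hemoglobin, while the other two species have red blood. The head kidney is the main blood-forming organ of bony fishes and also holds steroid-making interrenal cells and chromaffin cells. In bulk RNA, fewer cells of a type and less RNA per cell cannot be told apart.

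Galectins are lectins that bind beta-galactosides on glycoproteins and glycolipids. They are made without a signal peptide and act both outside the cell, where they crosslink surface glycoproteins, and in the cytosol, where some bind glycans exposed on broken vesicles. By domain layout they are called prototype (galectin-1 and the electric eel protein electrolectin), chimera (galectin-3) or tandem-repeat (galectin-4, galectin-8 and galectin-9). In mammals they are studied in macrophages and T cells, and galectin-3 and galectin-9 are known from blood-forming tissue.

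The total count per library ran from 2501922 to 12055675. Each row is named by an entry of some other organism, so reads of 1 fish gene can lie on several rows and rows of close relatives can share reads. The 8 galectin rows carry 6 different galectin names, with LEG3 present as a hamster, a mouse and a dog entry. Levels are CPM, the count of a row scaled to a common library total with trimmed mean of M-values (TMM) factors, and are compared between species within a row, not between rows, since row lengths are not known. A floor of 3 counts per library stood for a mean of 0.769 CPM in the icefish, 0.683 in T. bernacchii and 0.664 in G. acuticeps. Intervals and floors cover counting error only.

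Of 11 macrophage marker rows, 2 to 4 were at 0 in each library. The rows summed to 2926 to 4602 CPM in the icefish, 4338 to 5394 in T. bernacchii and 2267 to 4492 in G. acuticeps. The C. hamatus libraries differed among themselves in adrenal transcripts. Interrenal rows summed to 24224 CPM in replicate 3 against 13.9 and 26.1 in replicates 1 and 2, and chromaffin rows to 7376 in replicate 2 and 3088 in replicate 3 against 33.4 in replicate 1. Values of the galectin rows are therefore also given without replicates 2 and 3 of this species, which leaves 1 icefish library. Red cell precursor rows summed to 198 to 328 CPM in the icefish, 1590 to 2442 in T. bernacchii and 6511 to 16677 in G. acuticeps. T cell rows, led in the icefish by LCK_CHICK at a mean of 356 CPM, summed to 279 to 491 CPM there and 108 to 134 in T. bernacchii, but only 1.25 to 3.52 in G. acuticeps. The icefish sum thus rests largely on 1 row. Of 4 tested T cell rows, 1 was higher and 1 lower in the icefish than in T. bernacchii, beside 17.6% and 14.8% of all rows.

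Galectin rows took 2.28% ± 0.386 (SD, n = 3) of all counts in G. acuticeps, 0.0471% ± 0.0120 in the icefish and 0.0769% ± 0.0440 in T. bernacchii. Nearly all of the G. acuticeps share lay on LEG_ELEEL. Without that row the share was 0.0410% ± 0.0147 in G. acuticeps, 0.0234% ± 0.00414 in the icefish and 0.0582% ± 0.0318 in T. bernacchii. The ranges of the 2 red-blooded species overlapped. Those of G. acuticeps and the icefish overlapped narrowly, with a G. acuticeps minimum of 0.02616% and an icefish maximum of 0.02622%. LEG_ELEEL held 98.0%, 98.0% and 98.7% of the galectin counts in the 3 G. acuticeps libraries. It held 50.5%, 41.2% and 56.8% in the icefish, and 20.9%, 25.9% and 24.3% in T. bernacchii. LEG9_HUMAN was the leading galectin row by counts in T. bernacchii, with 53.0% ± 4.97 of galectin counts, against 22.3% ± 8.63 in the icefish and 1.36% ± 0.409 in G. acuticeps. These are shares of reads, and each share falls as another row rises.

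**Figure D1:**
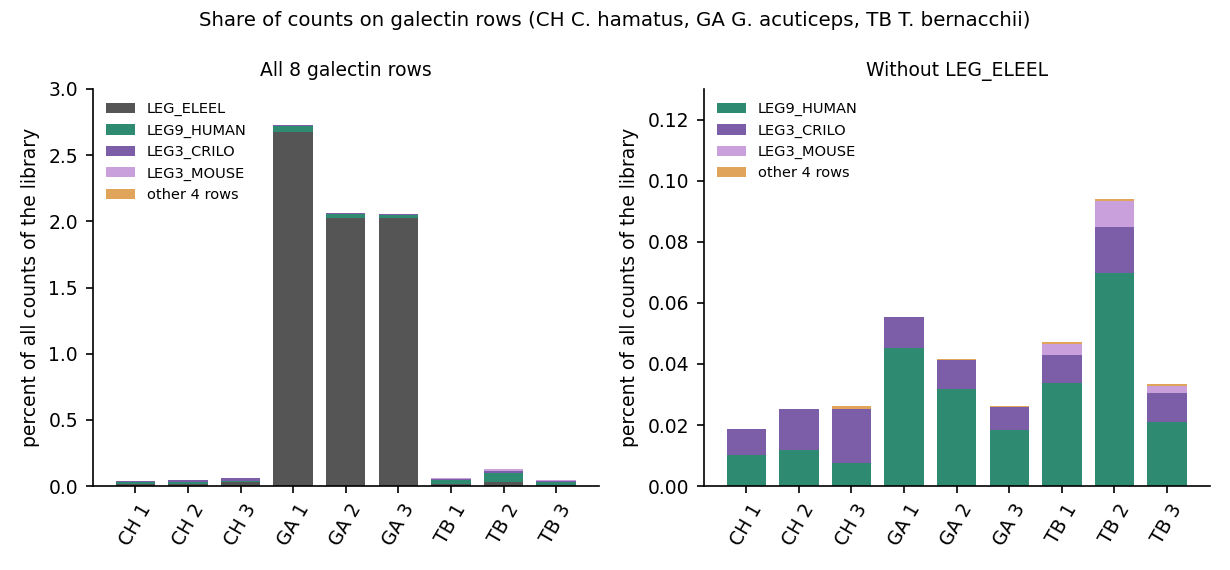
Stacked bars give the percent of all counts of each library that lay on galectin rows, for all 8 rows (left) and without LEG_ELEEL (right), with CH for C. hamatus, GA for G. acuticeps, TB for T. bernacchii and the replicate number. On the left the G. acuticeps bars stand at 2.05% to 2.73% and the other bars are near 0. On the right the T. bernacchii and G. acuticeps bars overlap, and the lowest G. acuticeps bar is about level with the highest icefish bar.

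LEG_ELEEL is named for electrolectin, the prototype galectin of the electric organ of the electric eel. Its counts in the G. acuticeps libraries were 81572, 87223 and 244338. The C. hamatus libraries held 984, 445 and 1478 counts, and the T. bernacchii libraries held 481, 855 and 1277. On the CPM scale these were 25395, 21915 and 24856 CPM in G. acuticeps, with the 3 libraries close together. They were 228, 151 and 293 CPM in the icefish and 119.9, 288 and 124 CPM in T. bernacchii, and the ranges of these 2 species overlapped. The mean level in G. acuticeps was 107 times that in the icefish and 136 times that in T. bernacchii, while the C. hamatus mean was 1.26 times the T. bernacchii mean.

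By count, LEG_ELEEL was the first row of the whole table in G. acuticeps replicate 1 and ranked 2 in replicates 2 and 3, taking 2.67%, 2.02% and 2.03% of all counts in these 3 libraries. In C. hamatus it ranked 462 to 869, and in T. bernacchii 405 to 1177. The row was therefore well covered in every library, and 445 counts were its lowest value. T. bernacchii replicate 2 stood above the other libraries of its species. Without it the log2 difference of C. hamatus over T. bernacchii moved from 0.34 to 0.86, and that of G. acuticeps over T. bernacchii from 7.09 to 7.63. Without C. hamatus replicates 2 and 3, the icefish differed by -6.72 from G. acuticeps and 0.39 from T. bernacchii on the log2 scale, against -6.75 and 0.34 with all libraries.

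**Figure D2:**
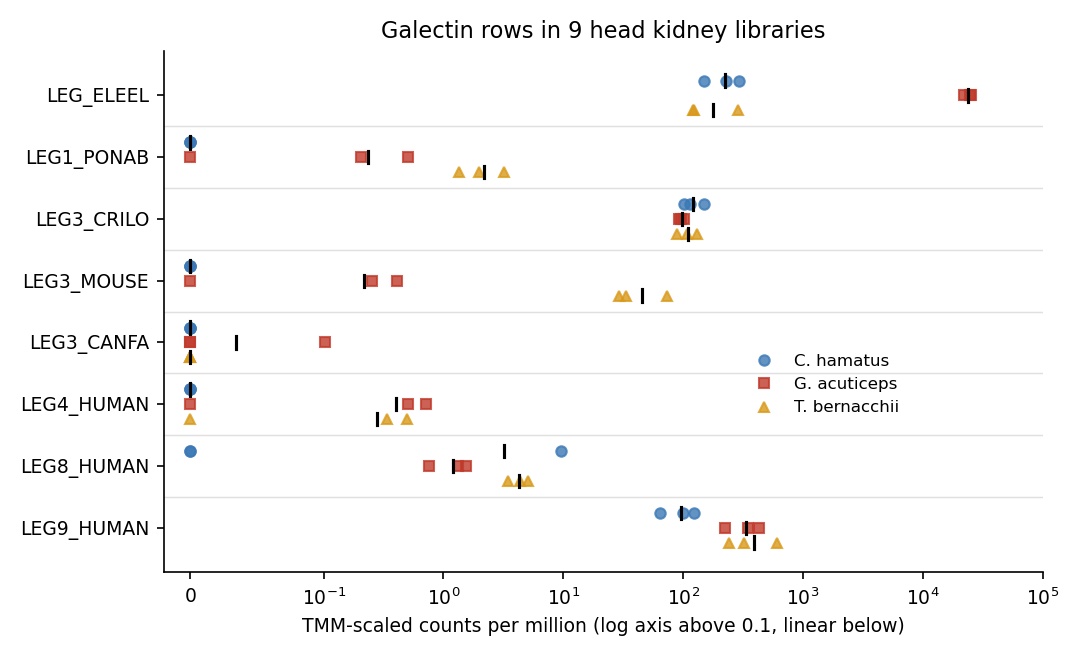
Each point is the TMM-scaled CPM of a galectin row in 1 library, on an axis that is logarithmic above 0.1 and linear below, with symbols by species and a black bar at the mean of 3 libraries. LEG_ELEEL in G. acuticeps stands at 21915 to 25395 CPM, apart from all other points, and LEG3_MOUSE has counts mainly in T. bernacchii.

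Because the electric organ derives from muscle, skeletal muscle markers were set beside LEG_ELEEL. The 16 muscle rows summed to 21704, 31974 and 34537 CPM in G. acuticeps, 493 to 1007 in the icefish and 581 to 2844 in T. bernacchii. In the icefish, 825, 205 and 873 CPM of the sums lay on CASQ1_RAT. That row was at 0 in T. bernacchii and at most 1.22 CPM in G. acuticeps, so the icefish sums rest largely on a row the others lack. Most of the G. acuticeps sum was ACTS_ORYLA, named for skeletal muscle actin, with 61156, 122853 and 293856 counts against 74, 489 and 107 in T. bernacchii. Without the 2 actin rows the sums were 559, 2644 and 1010 in T. bernacchii and 2663, 1075 and 4567 CPM in G. acuticeps, and these ranges overlapped. The part of muscle transcripts in the LEG_ELEEL difference was not tested.

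Between these 2 species, 2 of 13 tested muscle rows were called higher in G. acuticeps and 0 lower by edgeR's quasi-likelihood test, with 4 and 0 at an unadjusted p under 0.05 and 3 and 0 by DESeq2. Over all rows 13.1% were called higher and 18.3% lower in this pair, so the muscle count is near the background there. Without G. acuticeps replicate 3 the lower count was 2. In the icefish, 11 of the 13 rows were lower and 1 higher than in G. acuticeps, beside 16.8% and 25.1% of all rows. Against T. bernacchii, 9 were lower and 1 higher in the icefish, beside 14.8% and 17.6%. TITIN_MOUSE, the giant sarcomere spring protein, was 472 ± 60.1 CPM (SD, n = 3) in G. acuticeps, 53.1 ± 39.2 in T. bernacchii and 1.22 ± 1.07 in the icefish. Entries of 1 protein differed in G. acuticeps: KCRM_CANFA, muscle creatine kinase, was 458 ± 325 CPM and TNNT3_COTJA, a fast troponin, 131 ± 93.0, while KCRM_HUMAN, TNNT3_CHICK and another fast troponin, TNNC2_ANGAN, were at 0 in replicates 1 and 2. Of the 14 rows, 4, 4 and 0 were at 0 in the G. acuticeps libraries, 3, 3 and 1 in T. bernacchii, and 5, 3 and 7 in the icefish. Red cell precursor rows also summed highest in G. acuticeps, with 6 of 9 tested rows higher and 1 lower than in T. bernacchii. Over all rows these shares were 13.1% and 18.3%, and without T. bernacchii replicate 1, 3 were higher. The sums fell from 16677 to 10286 and 6511 CPM over G. acuticeps replicates 1 to 3, where LEG_ELEEL levels were close together. They were 1590 to 2442 CPM in T. bernacchii and 198 to 328 in the icefish, between which LEG_ELEEL ranges overlapped. The part of red cell precursor rows in the LEG_ELEEL difference was not tested.

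**Figure D3:**
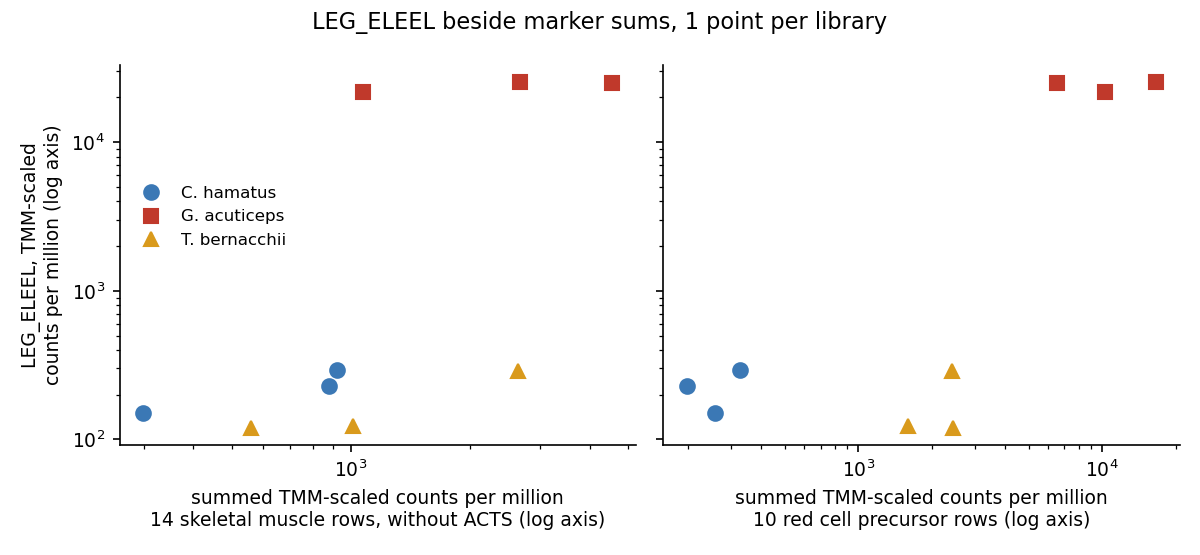
LEG_ELEEL CPM of each library is plotted against the summed CPM of 14 skeletal muscle rows without actin (left) and of 10 red cell precursor rows (right), all on log axes, with symbols by species. On the left the muscle sums of G. acuticeps and T. bernacchii overlap, and those of the icefish are mostly the row CASQ1_RAT. On the right the G. acuticeps points lie highest on both axes.

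The 5 rows whose pattern was most like that of LEG_ELEEL were found by Pearson's r of log2(CPM + 1) over the 9 libraries, which fall into 3 species, so r mainly reflects a high level in G. acuticeps. AP4AT_HUMAN, the vesicle coat accessory protein tepsin, had r of 0.993 and 104 ± 16.5 CPM in G. acuticeps. H2B3_TIGCA, a histone H2B, and TEKT2_MACFA, the ciliary protein tektin-2, had the same r to 3 digits, with 15.97 ± 2.20 and 11.3 ± 0.515 CPM there. SAMP_MESAU, the pentraxin serum amyloid P component, had r of 0.993 and 316 ± 116 CPM, and RL3R1_MOUSE, a relaxin-3 receptor, had r of 0.992 and 40.6 ± 8.18 CPM. None of the 5 exceeded 4.37 CPM in any library of the other species. An r over 0.9 was found for 332 of 8661 rows, so the pattern is not particular to LEG_ELEEL. No other tested galectin row came near it, with r of 0.361 for LEG9_HUMAN, -0.236 for LEG8_HUMAN, -0.386 for LEG3_CRILO and -0.483 for LEG3_MOUSE.

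Across the 4 other tested galectin rows, no row was called higher in the icefish than in either red-blooded species. Against G. acuticeps 0 were higher and 1 was lower, where 42.0% of all 8662 tested rows were called, 25.1% higher and 16.8% lower. Against T. bernacchii 0 were higher and 2 lower, where 32.4% of all rows were called, 17.6% higher and 14.8% lower. Between G. acuticeps and T. bernacchii 0 were higher and 1 was lower, where 31.4% were called, 13.1% higher and 18.3% lower. With 4 rows these shares cannot be judged against the background, and each of the 3 pairs shares a species with the other pairs. At an unadjusted p under 0.05 the higher counts were also 0 in edgeR, as were the adjusted counts in DESeq2. The median log2 fold change of the 4 rows was -0.74, -1.22 and -1.02 in the 3 pairs, beside 0.15, 0.02 and -0.12 over all tested rows. LEG3_MOUSE, which passed the filter through T. bernacchii alone and so had to differ, is 1 of the 2 rows called between the icefish and T. bernacchii and the 1 row called between G. acuticeps and T. bernacchii, and it enters these medians. LEG8_HUMAN, called in no pair, passed through T. bernacchii and C. hamatus replicate 3 and also enters the medians. Without T. bernacchii it would not have been tested.

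LEG9_HUMAN, galectin-9, which in mammals binds the T cell receptor TIM-3, was lower in the icefish. Its levels were 122, 100.5 and 63.9 CPM in the icefish, against 325, 611 and 241 in T. bernacchii and 429, 345 and 226 in G. acuticeps. The highest icefish library lay below the lowest library of both other species, whose ranges overlapped. The log2 fold change was -1.80 (SE 0.48, adjusted p = 0.0126) against G. acuticeps and -2.04 (SE 0.48, adjusted p = 0.00900) against T. bernacchii, by the quasi-likelihood test of edgeR, Benjamini-Hochberg adjusted over 8662 rows. Between the red-blooded species it was -0.24 (SE 0.47, adjusted p = 0.737).

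Both icefish calls for LEG9_HUMAN held when each of the 9 libraries was left out in turn, with adjusted p from 0.00672 to 0.0445 against G. acuticeps and from 0.0105 to 0.0268 against T. bernacchii. With C. hamatus replicates 2 and 3 left out, the log2 fold changes were -1.45 and -1.65 and neither was called (adjusted p = 0.162 and 0.138). The row ranked 1022 to 2148 by count in the icefish, 201 to 555 in T. bernacchii and 326 to 661 in G. acuticeps. Red cell precursor sums were also lowest in the icefish, with 9 and 8 of 9 tested rows lower than in G. acuticeps and T. bernacchii, beside 16.8% and 14.8% of all rows, and their part in the difference was not tested.

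LEG8_HUMAN, galectin-8, marks broken vesicles in human cells and recruits the autophagy receptor NDP52. It was near the detection limit, and 1 icefish library set its level there. Counts were 0, 0 and 48 in the icefish, 14, 15 and 45 in T. bernacchii and 5, 3 and 13 in G. acuticeps. C. hamatus replicate 3 reached 9.53 CPM, the highest of all 9 libraries, while replicates 1 and 2 were under floors of 0.696 and 1.02 CPM. The levels were 3.49, 5.05 and 4.37 CPM in T. bernacchii and 1.56, 0.754 and 1.32 in G. acuticeps, with no overlap between these 2 species.

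The log2 fold change of LEG8_HUMAN was 1.41 (SE 1.46, adjusted p = 0.468) in the icefish over G. acuticeps and -0.40 (SE 1.40, adjusted p = 0.857) over T. bernacchii. Without C. hamatus replicate 3, which also holds the interrenal transcripts, the row was called lower in the icefish in both pairs. Against G. acuticeps its direction turned (adjusted p = 0.0184, where 41.3% of all rows were called). Against T. bernacchii the adjusted p was 0.00689, where 30.9% were called. In that fit the row passed the filter through T. bernacchii alone, so a difference from T. bernacchii was built into its being tested. Without replicates 2 and 3 of C. hamatus, which leaves 1 icefish library, the log2 fold changes were -5.78 over G. acuticeps and -7.56 over T. bernacchii. Interrenal sums moved with this library, and their part was not tested. In G. acuticeps over T. bernacchii the log2 fold change was -1.81 (SE 1.46, adjusted p = 0.380), and the pooled, depth-scaled counts were 3.47 times higher in T. bernacchii (95% counting interval 2.11 to 5.93). A fit of only the 6 libraries of these 2 species called the difference (adjusted p = 0.0325, where 39.5% of 7470 rows were called). In that fit the row passed the filter through T. bernacchii alone, so a difference was built into its being tested. In the fit over all 9 libraries it passed through T. bernacchii and C. hamatus replicate 3, with no G. acuticeps library. A lower level in G. acuticeps than in T. bernacchii was thus partly built in there too.

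LEG3_CRILO, the hamster entry of galectin-3, a lectin known from macrophages, stayed at a similar level in all 9 libraries. Its values were 101, 114 and 150 CPM in the icefish, 89.5, 131 and 108 in T. bernacchii and 96.8, 102 and 92.6 in G. acuticeps. The ranges of all 3 species overlapped. The log2 fold changes were 0.33 (SE 0.34, adjusted p = 0.475), 0.15 (SE 0.34, adjusted p = 0.769) and -0.17 (SE 0.34, adjusted p = 0.739) in the 3 pairs. Without C. hamatus replicates 2 and 3 the first 2 were 0.056 and -0.088 (adjusted p = 0.966 and 0.922). A difference was not shown for this row, and an SE of 0.34 leaves room for moderate ones.

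LEG3_MOUSE, the mouse entry of galectin-3, held counts almost only in T. bernacchii. Counts were 134, 220 and 300 there, 0, 1 and 4 in G. acuticeps and 0 in every C. hamatus library. In CPM, T. bernacchii was at 33.4, 74.0 and 29.1, a mean at least 59.2-fold higher than the floor of 3 counts per library in the icefish (adjusted p = 0.000578). Over G. acuticeps the pooled, depth-scaled counts were 129-fold higher (95% counting interval 54.9 to 398, adjusted p = 0.000741). C. hamatus and G. acuticeps did not differ past the threshold (adjusted p = 0.0875). With C. hamatus replicates 2 and 3 left out, the icefish call against T. bernacchii stayed (adjusted p = 0.00663). The row entered the test through T. bernacchii alone, so a difference was built into its being tested.

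Since the 3 LEG3 rows may share the reads of 1 fish gene, they were also summed. The sums were 101, 114 and 150 CPM in the icefish, 122.9, 205 and 137 in T. bernacchii and 96.8, 102.5 and 93.1 in G. acuticeps. On the summed rows no pair was called, with log2 fold changes of 0.32 (SE 0.35, adjusted p = 0.492), -0.35 (SE 0.35, adjusted p = 0.489) and -0.68 (SE 0.35, adjusted p = 0.176). The mouse entry took 27.2%, 36.1% and 21.2% of the LEG3 counts in T. bernacchii and at most 0.437% in G. acuticeps. LEG3_CANFA, the dog entry, had 1 count in all, in G. acuticeps replicate 3. Over rows summed by mnemonic, 41.2%, 31.6% and 30.5% of rows were called in the 3 pairs.

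**Figure D4:**
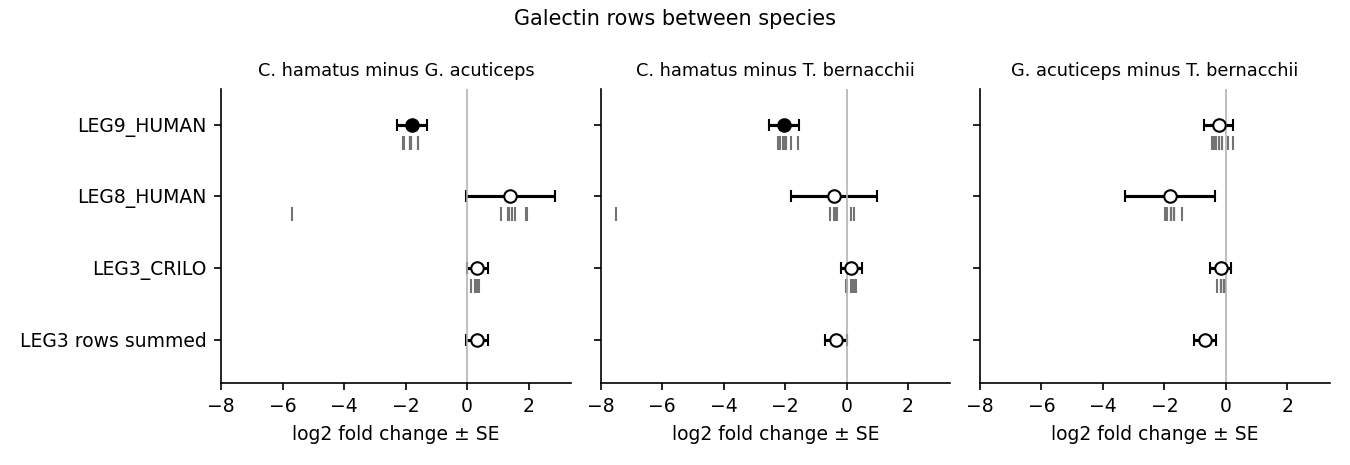
Points give the log2 fold change ± SE of 3 galectin rows and of the summed LEG3 rows in the 3 species pairs, filled where the adjusted p was under 0.05, and grey ticks give the values of the single rows with 1 library left out. LEG9_HUMAN is filled in both icefish pairs; LEG8_HUMAN has 1 tick at -5.69 against G. acuticeps, from leaving out C. hamatus replicate 3.

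The remaining rows were too low for the filter. LEG1_PONAB, galectin-1, the prototype galectin of many mammalian tissues, had 8, 4 and 33 counts in T. bernacchii, 0, 2 and 2 in G. acuticeps and 0 in all C. hamatus libraries. At 1.99, 1.35 and 3.20 CPM, T. bernacchii was at least 2.84-fold higher than the C. hamatus floor and its pooled, depth-scaled counts were 11.1 times those of G. acuticeps (95% counting interval 4.04 to 42.4). With no filter the row was called in the icefish against T. bernacchii (adjusted p = 0.0357, where 23.8% of 12653 rows were called) and in no other pair (adjusted p = 0.193 against G. acuticeps and 0.213 between the red-blooded species, where 30.0% and 21.0% of rows were called). LEG4_HUMAN, galectin-4, in mammals a galectin of gut epithelium, had 2, 1 and 0 counts in T. bernacchii, 0, 2 and 7 in G. acuticeps and 0 in the icefish, and was not called in any pair with no filter (adjusted p from 0.177 to 0.846). LEG_ELEEL is also named for a prototype galectin, and whether reads of a galectin-1 gene lay there rather than on LEG1_PONAB was not tested.

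Galectin ligands and the enzymes that make them were read from 3 lists of mnemonics. Among 18 tested rows of enzymes that build galectin-binding glycans, 9 were higher and 1 lower in the icefish than in G. acuticeps, or 55.6% called beside 42.0% of all rows. Against T. bernacchii 4 were higher and 2 lower, or 33.3% beside 32.4%, and in G. acuticeps over T. bernacchii 2 were higher and 4 lower, or 33.3% beside 31.4%. The median log2 fold changes were 1.78, 2.01 and 0.12. MGT5A_MOUSE, B3GN2_MOUSE, B3GN7_HUMAN and MGT4A_CHICK, among the 9 rows higher than in G. acuticeps, passed the filter only because of the icefish. All but MGT4A_CHICK are also among the 4 rows higher than in T. bernacchii. MA1A1_RABIT, lower than in T. bernacchii in both pairs, passed through T. bernacchii alone. These differences were built into the rows being tested, and the counts and medians include them. In C. hamatus over G. acuticeps, 5 rows were higher without G. acuticeps replicate 3 and 4 without C. hamatus replicates 2 and 3. Over T. bernacchii, 7 were higher without C. hamatus replicate 1, 8 without T. bernacchii replicate 2 and 10 by DESeq2. The low counts of the list, 1 to 4 rows, also moved by 1 or 2 rows when single libraries were left out, for C. hamatus replicates 1 and 3 and every library of the other species apart from T. bernacchii replicate 2.

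MGT5A_MOUSE, which makes the branched N-glycans that galectins bind in mammals, was chosen after its values were seen. Its levels were 239, 258 and 141 CPM in the icefish, 0.499, 3.03 and 0.679 in T. bernacchii and 1.25, 1.51 and 1.32 in G. acuticeps. The icefish libraries lay far above the other 6, with log2 fold changes of 7.26 (SE 0.72) and 7.37 (SE 0.73), given without a test. B3GN2_MOUSE extends the poly-N-acetyllactosamine chains of these glycans and was also highest in the icefish, at 22.5, 47.7 and 29.4 CPM in the icefish, 0.249 to 0.776 in T. bernacchii and 0 in G. acuticeps. It was at least 49.98-fold higher than the G. acuticeps floor and 54.2-fold higher than in T. bernacchii (95% counting interval 29.2 to 114). Both rows passed the filter through the icefish alone, so a difference was built into their being tested.

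MGT4A_CHICK, another branching enzyme, was at 11.6, 24.4 and 92.9 CPM in the icefish against 0.249, 10.8 and 0.970 in T. bernacchii and at most 0.251 in G. acuticeps. T. bernacchii replicate 2 came near the lowest icefish library, and that pair was not called (adjusted p = 0.0613). B4GT4_HUMAN, a galactosyltransferase chosen after its values were seen, instead had its highest level in T. bernacchii, at 59.3 ± 16.6 CPM (SD, n = 3) against 12.6 ± 11.1 in the icefish and 0.840 ± 0.662 in G. acuticeps.

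Of 17 tested rows of glycoproteins known in mammals to be bound by galectins, 7 were higher and 3 lower in the icefish than in G. acuticeps, or 58.8% called beside 42.0%. Against T. bernacchii 4 were higher and 2 lower (35.3% beside 32.4%), and in G. acuticeps over T. bernacchii 1 was higher and 4 lower (29.4% beside 31.4%). The median log2 fold changes were 0.70, 0.92 and 0.19. The 2 rows lower in the icefish than in T. bernacchii were ITAM_HUMAN and CD44_HORSE, which are also among the 4 lower in G. acuticeps. Both passed the filter through T. bernacchii alone, so these calls were built in. In C. hamatus over G. acuticeps, 4 rows were higher without C. hamatus replicate 2 or G. acuticeps replicate 2, and 2 without C. hamatus replicates 2 and 3, which also left 2 higher over T. bernacchii; 0 or 1 was lower when any library of these 2 species was left out. In G. acuticeps over T. bernacchii, 1 or 2 rows were lower without any G. acuticeps library, and 2 were higher without T. bernacchii replicate 2 or 3.

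FINC_BOVIN, the matrix glycoprotein fibronectin and also chosen after its values were seen, was 1112 ± 527 CPM in the icefish, 125 ± 65.5 in G. acuticeps and 201 ± 94.7 in T. bernacchii. Its log2 fold changes were 3.15 (SE 0.59) and 2.46 (SE 0.57), given without a test. Stroma and vessel rows moved with it, with 9 of 11 tested rows higher in the icefish than in G. acuticeps and 7 higher than in T. bernacchii, beside 25.1% and 17.6% of all rows; the first count was 3 without G. acuticeps replicate 2 or 3. Their sums were 3712 to 11537 CPM in the icefish, 928 to 1045 in T. bernacchii and 878 to 1524 in G. acuticeps. VGFR2_DANRE is on both the stroma and vessel list and the glycoprotein list. The part of stroma and vessel rows in the ligand rows was not tested.

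MUC18_HUMAN, the endothelial adhesion protein CD146, was at 0 in all T. bernacchii libraries, against 200, 364 and 305 CPM in the icefish and 759, 671 and 706 in G. acuticeps. That made it at least 424-fold higher in the icefish and 1043-fold higher in G. acuticeps than the T. bernacchii floor. CD44_HORSE, a hyaluronan receptor of leukocytes, had counts only in T. bernacchii, at 8.72, 146 and 9.22 CPM, with replicate 2 far above the others. This row and ITAM_HUMAN passed the filter through T. bernacchii alone, so a difference from T. bernacchii was built into their being tested. ITAM_HUMAN, the integrin alpha chain of myeloid cells, had 0 counts in the icefish and 11.2, 78.1 and 7.08 CPM in T. bernacchii, but with the ITAM rows summed the direction turned in both icefish pairs. A row at 0 in a species may therefore stand for a gene whose reads lay on another row.

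Galectin-8 and galectin-3 act in the response to damaged lysosomes and vesicles in mammals, and 18 rows of that response were tested. LAMP1_CHICK and LAMP1_HUMAN are also on the glycoprotein list. LAMP1_HUMAN counts in both lists among the rows higher in C. hamatus than in G. acuticeps. In C. hamatus over G. acuticeps 5 were higher and 3 lower, or 44.4% beside 42.0% of all rows. Against T. bernacchii 0 were higher and 3 lower, or 16.7% beside 32.4%, with 1 higher at an unadjusted p under 0.05 and 1 by DESeq2. In G. acuticeps over T. bernacchii 2 were higher and 6 lower, or 44.4% beside 31.4%. The median log2 fold changes were 0.22, -0.03 and -0.69. The 3 rows lower in the icefish than in T. bernacchii were OPTN_DANRE, SQSTM_RAT and VPS4A_RAT. They passed the filter through T. bernacchii alone, so these calls were built in. The first count of 5 was 2 without C. hamatus replicate 2 or G. acuticeps replicate 2, and 3 without G. acuticeps replicate 1 or 3; without C. hamatus replicates 2 and 3, 2 were higher and 1 lower. Against T. bernacchii 1 was higher without C. hamatus replicate 3, and leaving out T. bernacchii replicate 2 gave 2.

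OPTN_DANRE, the autophagy receptor optineurin, had counts only in T. bernacchii, at 283, 168 and 214 CPM. It was at least 288-fold higher than the C. hamatus floor and 334-fold higher than that of G. acuticeps. SQSTM_RAT, the autophagy receptor p62, likewise had counts only in T. bernacchii, at 89.0, 76.7 and 36.1 CPM. VPS4A_RAT, an ATPase of the membrane repair machinery, was at 22.2, 4.37 and 32.5 CPM in T. bernacchii, 0.623, 1.26 and 1.02 in G. acuticeps and 0 in the icefish. OPTN_DANRE, SQSTM_RAT and VPS4A_RAT passed the filter through T. bernacchii alone, so a difference from T. bernacchii was built into their being tested. All of these rows were named for the size of their log2 fold change. A level above both other species in every T. bernacchii library, shared with LEG3_MOUSE and LEG1_PONAB, therefore partly follows from this choice. NBR1_PONAB, chosen by the same rule, had its highest mean in the icefish. It was at 30.3 CPM (SD 35.5) there, 12.5 (SD 16.8) in T. bernacchii and 0.686 (SD 0.632) in G. acuticeps.

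**Figure D5:**
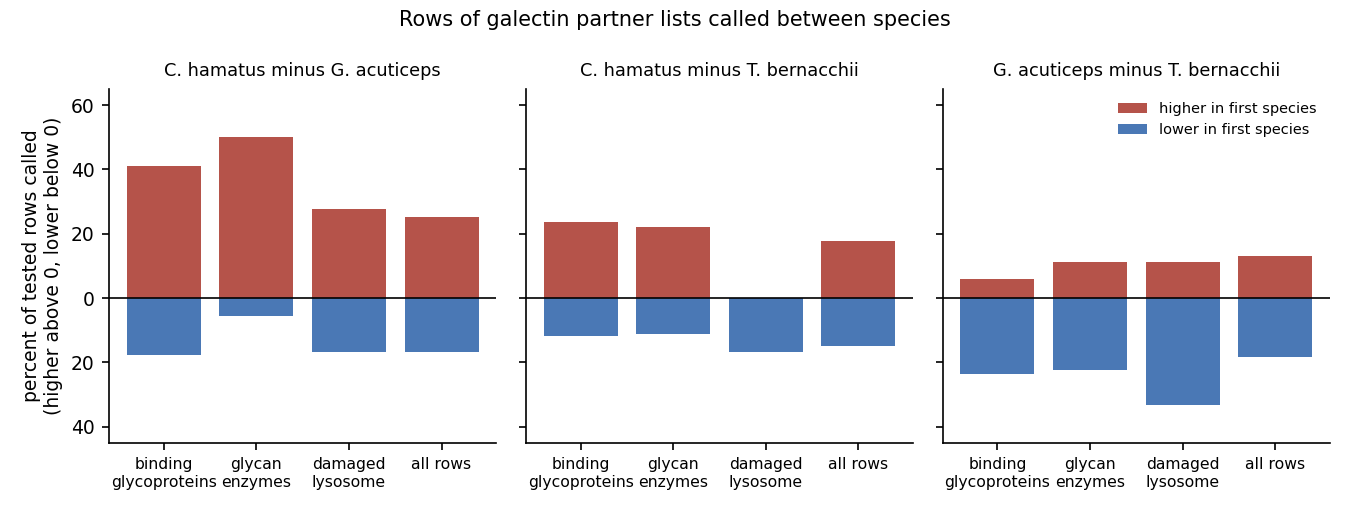
Bars give the percent of tested rows of each list called higher (above 0) or lower (below 0) in the first species of a pair, for 17 glycoprotein rows, 18 glycan enzyme rows, 18 damaged lysosome rows and all 8662 tested rows. In C. hamatus over G. acuticeps the glycan enzyme bar above 0 stands for 9 rows and is the tallest of the plot.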

How the data were processed

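Per the labels' protocols, RNA was extracted with Trizol from frozen head kidney and libraries were made with an Illumina TruSeq kit. The authors deposited whole-number read counts without normalization. How reads were aligned and counted, and against what reference, is not given in the sources used here. Total counts per library ran from 2501922 to 12055675.

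The members, lists and tests were chosen with earlier results of these data known. Rows were filtered with filterByExpr, which left 8662 of 12653, scaled by TMM factors and fitted over all 9 libraries with species as the only term (edgeR 4.0.16 quasi-likelihood test, R 4.3.3). P-values were Benjamini-Hochberg adjusted over all tested rows, and a row was called at an adjusted p under 0.05. Each SE was taken as the absolute log2 fold change over the square root of F. Where a species was at 0, folds are lower bounds against 3 counts per library. Ratios of pooled counts have exact 95% binomial counting intervals. The fit was tested on simulated counts.

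All galectin rows are named. From each ligand, enzyme or lysosome list up to 4 called rows with the largest log2 fold change could be named, with 5 rows most like LEG_ELEEL; exceptions are said in place. Marker rows are given mainly as sums. Lists matched mnemonics exactly, and the list of galectin-related proteins matched no row. Alternatives used DESeq2 1.42.0, other scalings and filters, a replicate block, pairs fitted alone, mnemonics summed, the 20 highest rows left out, and libraries left out.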

Additional observations from a re-analysis of the deposited data

How the results depend on the processing

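The count of galectin rows called in C. hamatus against G. acuticeps was 1 and ran from 1 to 2 when single libraries were left out, with 2 without C. hamatus replicate 3; it was 0 without C. hamatus replicates 2 and 3, an alternative chosen after seeing the data that leaves 1 library in that species, assumed to vary like the others. Against T. bernacchii the count was 2, rose to 3 without C. hamatus replicate 3, where LEG8_HUMAN was called, and fell to 1 with mnemonics summed. Between the red-blooded species it was 1, became 2 with only the 6 libraries of the pair and fell to 0 with mnemonics summed. Summing merges LEG3_MOUSE with LEG3_CRILO. Each of these rises, 1 in each of the 3 pairs, came from LEG8_HUMAN, which passed the filter through T. bernacchii alone in those fits. Galectin counts in G. acuticeps came to 2.69% of the counts outside the 20 highest rows. LEG_ELEEL is itself among these 20 rows, so this value is a ratio of unlike parts and not a share. With single libraries left out, the log2 fold change of LEG8_HUMAN ran from -5.69 to 1.95 in C. hamatus over G. acuticeps and from -7.48 to 0.23 over T. bernacchii, both lowest without C. hamatus replicate 3. LEG3_CRILO ran from -0.025 to 0.32 and NBR1_PONAB from -0.31 to 3.36 in C. hamatus over T. bernacchii. In G. acuticeps over T. bernacchii, LEG9_HUMAN ran from -0.44 to 0.24 and MGT5A_MOUSE from -0.26 to 1.13. Without C. hamatus replicates 2 and 3, LEG8_HUMAN turned to -5.78 over G. acuticeps and LEG3_CRILO to -0.088 over T. bernacchii. With mnemonics summed, which adds entries of the same name, ITAM_HUMAN turned to 3.23 over G. acuticeps and 0.74 over T. bernacchii, VTNC_RABIT to 0.39, 0.28 and -0.10 in the 3 pairs, LEG3_MOUSE to 0.32 over G. acuticeps and LEG3_CRILO to -0.35 over T. bernacchii. Of the values of tested galectin rows under alternatives, 206 kept direction and side of the threshold, 3 passed it, 4 lost it and 10 turned. The 206 include values that were called neither in the main fit nor in the alternative. They also include LEG3_MOUSE, whose difference from T. bernacchii was built in. With the replicate number as a block the galectin counts stayed at 1, 2 and 1, and 3389, 2629 and 2568 of all rows were called against 3636, 2810 and 2721. Same-numbered libraries deviated together with r from -0.22 to 0.26, and 6 of 18 best matches had their own number, so the numbers were not taken to pair libraries. Upper-quartile scaling moved the median of all rows by less than 0.1. Depth limits LEG1_PONAB, LEG4_HUMAN, LEG3_CANFA and LEG8_HUMAN.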

Other observations

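LEGLB_XENLA, named for a galectin-related protein of the clawed frog, lies outside the rule and was chosen after its values were seen. It had 0, 9 and 4 counts in the icefish C. hamatus, 1, 0 and 0 in T. bernacchii and 0, 0 and 1 in G. acuticeps, too few to be tested.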
